A study of Homo sapiens with 12 samples.

Results

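The CCND1 and FGF19 locus is a window of 0.6 Mb in band 11q13.3, from 69.05 to 69.65 Mb of chromosome 11 in hg19 coordinates. Along the chromosome it holds MYEOV near 69.06 Mb, a stretch of strong H3K4me1 around chr11:69256370-69260274, CCND1 at 69.456 to 69.469 Mb, FGF19 at 69.513 to 69.519 Mb, FGF4 near 69.588 Mb and FGF3 at 69.625 to 69.634 Mb. Its members are the deposited ChIP peaks that overlapped the window, 840 of 1552170 on chromosomes 1 to 22 and X over 10 lists. The window was chosen by position around these genes with peak values of the same lists in view, and that stretch was selected on its H3K4me1 signal. The H3K4me1 values there are therefore given as a description, and they support nothing. At the lower edge of the window the first peak inside was a FLAG peak of the overexpression list with a height of 33.4, and the nearest outside was an H3K4me1 peak of the same condition with a height of 18.5. At the upper edge these were a control FLAG peak of 26.3 and a control H2A.Z peak of 6.44.

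The 12 libraries are ChIP-seq (sequencing of immunoprecipitated chromatin) of Huh7, a human line of hepatocellular carcinoma. Cells of both conditions carried a FLAG tag knocked in where the VPS72 protein ends, with Cas9, a guide RNA and a repair template, followed by blasticidin selection and expansion of surviving colonies. The labels do not say whether the cells came from 1 clone. In the overexpression condition they were infected for 24 h with lenti-VPS72-FLAG virus, and in the control with lenti-HA virus, an empty vector. The antibodies were against FLAG, the histone variant H2A.Z, its acetylated form (H2A.Zac), H3K27ac and H3K4me1, and each condition also had an input. Each group was 1 library, so the conditions are set side by side with no replicate check and no test. FLAG ChIP of untagged cells is not analysed here, and without it VPS72 binding and nonspecific FLAG signal cannot be told apart; VPS72 levels were not measured by these libraries.

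CCND1 encodes cyclin D1, which activates CDK4 and CDK6 and drives cells into S phase. FGF19 is a hormone of the ileum that signals through FGFR4 and beta-klotho on hepatocytes and represses bile acid synthesis. FGF4 and FGF3 are fibroblast growth factors of the embryo, mostly silent in adult tissue, and MYEOV lies at the other end of the window. The band is a recurrent amplicon of human carcinomas, hepatocellular carcinoma included, where CCND1 and FGF19 are usually gained together. VPS72 binds H2A.Z and belongs to both complexes that exchange it into chromatin, SRCAP and TIP60. H2A.Zac and H3K27ac mark active promoters and enhancers, and H3K4me1 marks enhancers and the flanks of promoters.

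In the RefSeq gene order of GRCh38.p14, LTO1 and LOC124902704 lie between CCND1 and FGF19, and ANO1 follows FGF3. These genes and those of the FGF19 and cyclin D pathways were not placed on the peaks, because no annotation of hg19 was used here. Of the 5 genes, 1 had a promoter in the RefSeq promoter table, FGF3, whose start in the window lay under one of the strongest FLAG regions of the locus. The 250 bases before its start, on the minus strand of GRCh38.p14 chromosome 11, are shown for that reason, with each GGGCGG (the SP1/KLF box, either strand) in capitals.
FGF3: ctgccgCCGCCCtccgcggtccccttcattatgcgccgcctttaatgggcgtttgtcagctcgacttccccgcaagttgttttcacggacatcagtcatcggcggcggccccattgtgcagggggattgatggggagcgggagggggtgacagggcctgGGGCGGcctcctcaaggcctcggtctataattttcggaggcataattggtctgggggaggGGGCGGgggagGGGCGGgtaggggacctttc
The sequence held 4 such boxes, none overlapping, and at least 1 was present in 42.6% of the same 250 bases of 35116 promoters. It held no TATAAA, found in 10.7% of promoters, on either strand. Nor did it hold the AP-1 motif TGANTCA (6.57% of promoters), the E-box CACGTG (6.34%) or the cAMP response element TGACGTCA (1.65%). Its GC content was 64.4%, against a median of 58.0%, and it held 19 CpG, against a median of 11.

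Heights below are reads at a peak's summit divided by the average number of reads over a base of the genome in the same library, both recovered from the deposited fold and p. No scale between libraries was analysed here. A region is a deposited peak with a q of 0.05 or less, unless called a deposited peak, and folds are the authors' values. A region was found in the other condition where it overlapped any deposited peak of the same antibody there by at least 1 bp. Recovered depths were 3.07 M (mega) reads for FLAG with overexpression and 4.38 M in the control, and 17.9 to 25.02 M for the histone libraries. Intervals are exact 95% intervals and cover counting error only. No input peak lay in the window in either condition.

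CCND1 carried the highest H3K27ac of the locus in both conditions. The region over its start, chr11:69452461-69458802 with overexpression and chr11:69451081-69458278 in the control, had 116 reads and a height of 54.1 with overexpression, against 135 reads and 72.1 in the control. The ratio was 0.750 (0.580 to 0.968). H2A.Zac just upstream of the start, with its summit at -4.75 kb with overexpression and at -4.39 kb in the control, was lower by more, at a height of 30.0 with overexpression and 53.1 in the control. Its ratio was 0.565 (0.409 to 0.776). H2A.Z itself was at nearly the same height there, 18.9 with overexpression and 19.3 in the control, with a ratio of 0.978 (0.565 to 1.70), while its fold was 6.35 with overexpression and 4.18 in the control. Over the genome the median ratio was 0.748 for H3K27ac, 0.652 for H2A.Zac and 0.852 for H2A.Z, values inside the 3 intervals at CCND1.

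H3K4me1 did not stand out at the joined place around the CCND1 start, chr11:69450650-69460023. Its highest peaks there lay inside the gene, past the start, and not over it. They were chr11:69458404-69460023 with overexpression, with a height of 11.7, and chr11:69458446-69458974 in the control, with 10.0. The control peak did not reach a q of 0.05. The median height of H3K4me1 regions in the locus was 10.2 with overexpression and 12.3 in the control. Over the genome it was 5.84 with overexpression and 7.25 in the control. H3K4me1 was higher at the end of the gene. The region chr11:69468701-69471309 had 40 reads and a height of 19.5 with overexpression, and chr11:69468631-69469626 had 23 reads and 12.8 in the control. FLAG lay along the gene in small regions rather than in one peak. Within 10 kb of CCND1 there were 7 FLAG regions with overexpression and 10 in the control. The strongest with overexpression, chr11:69460965-69461562 inside the gene, had 13 reads and a height of 39.5, against 12 reads and 26.3 in the control. The strongest control region assigned to CCND1, chr11:69387203-69387659, lay before the gene, at -68.5 kb, with 20 reads and a height of 43.8, and had no deposited overexpression peak.

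Between CCND1 and FGF19 a compact place at chr11:69488508-69490921 had the same composition as the joined place around the CCND1 start. H3K27ac had a height of 32.2 with overexpression and 43.3 in the control, a ratio of 0.743 (0.531 to 1.04). H2A.Zac stood at 24.2 with overexpression and 38.1 in the control, a ratio of 0.634 (0.438 to 0.913), and H2A.Z at 15.2 with overexpression and 17.2 in the control. H3K4me1 was again near the medians of the locus, 11.2 with overexpression and 11.7 in the control. The control peak there did not reach a q of 0.05, on a local background of 4.69, against 2.27 with overexpression. The 2 places were the only ones of the locus with H2A.Z, H2A.Zac and H3K27ac but no H3K4me1 region in the control, and both held all 4 marks with overexpression. The H3K4me1 call differed, but both intervals of its ratio of heights held 1. The ratio was 0.955 (0.506 to 1.82) here and 1.16 (0.605 to 2.27) around the CCND1 start.

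FGF19 lay in the longest marked place of the locus, chr11:69515084-69524887, which held all 4 histone marks in both conditions. H3K27ac reached 29.4 with overexpression and 41.1 in the control, a ratio of 0.714 (0.504 to 1.01). H2A.Zac reached 26.9 with overexpression and 40.7 in the control, a ratio of 0.660 (0.464 to 0.935). Its fold ran the other way, 9.28 with overexpression and 6.32 in the control, where the local background was 2.40 with overexpression and 5.95 in the control. H3K4me1 was higher with overexpression, 23.4 against 17.8 in the control, but the interval of the ratio of 1.31 ran from 0.820 to 2.12. Here too the fold had the other direction, 5.07 with overexpression and 6.31 in the control. The H2A.Z region that ranked strongest at FGF19 differed between the lists, and both regions were found in both conditions. With overexpression it was chr11:69518798-69519984 at the upper end of the gene, where its transcription starts, with a height of 18.9 against 16.5 in the control. In the control it was chr11:69515366-69515943 inside the gene, where the height was 10.97 with overexpression, against 20.0 in the control. Those summits rested on 18 to 31 reads, and no interval was taken for either of these ratios. FLAG was strong here at a pair of neighbouring regions of the gene. At chr11:69517895-69519011 the height was 60.7 with overexpression, on 20 reads, and 35.1 in the control, on 16 reads. At chr11:69516927-69517461 it was 48.6 with overexpression and 48.2 in the control.

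FGF4 and FGF3 looked different from CCND1 and FGF19: strong FLAG, with histone marks absent or low for the locus. This was not particular to them. The FLAG region chr11:69354874-69355325, at 51.6 with overexpression and 35.1 in the control, overlapped no histone region. Nor did the control FLAG region chr11:69195214-69196138, at 48.6 with overexpression and 50.4 in the control. The strongest FLAG region of the locus in both lists had its summit 2.1 kb above the position that marks FGF4. It was chr11:69588554-69591610 with overexpression, with a fold of 10.1, 21 reads and a height of 63.7, and chr11:69588294-69591693 in the control, with a fold of 12.6, 33 reads and a height of 72.3. The ratio of heights was 0.881 (0.484 to 1.57). Under it the control had 1 weak H2A.Z region with 9 reads and a height of 6.44, and overexpression a deposited H2A.Z peak of 5.48 above the q limit. H2A.Zac had a deposited control peak of 5.15, also above the q limit, and the H3K27ac and H3K4me1 lists held no peak there in either condition.

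At FGF3 the FLAG region chr11:69631837-69634746 with overexpression had 17 reads and a height of 51.6, and chr11:69631879-69635560 in the control had 19 reads and 41.7. H2A.Z had a summit of 7.92 with overexpression and 5.73 in the control, and beside it one of 4.88 with overexpression, above the q limit, and 6.44 in the control. H3K4me1 stood at 6.33 with overexpression and 6.14 in the control. A control H2A.Zac region of 5.67 had no deposited overexpression peak. No H3K27ac region was assigned to FGF4 or FGF3 in either condition, whereas 5 were assigned to CCND1 in each. These FLAG heights are set against FLAG only, since the FLAG lists had a higher local background than the histone lists.

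**Figure D1:**
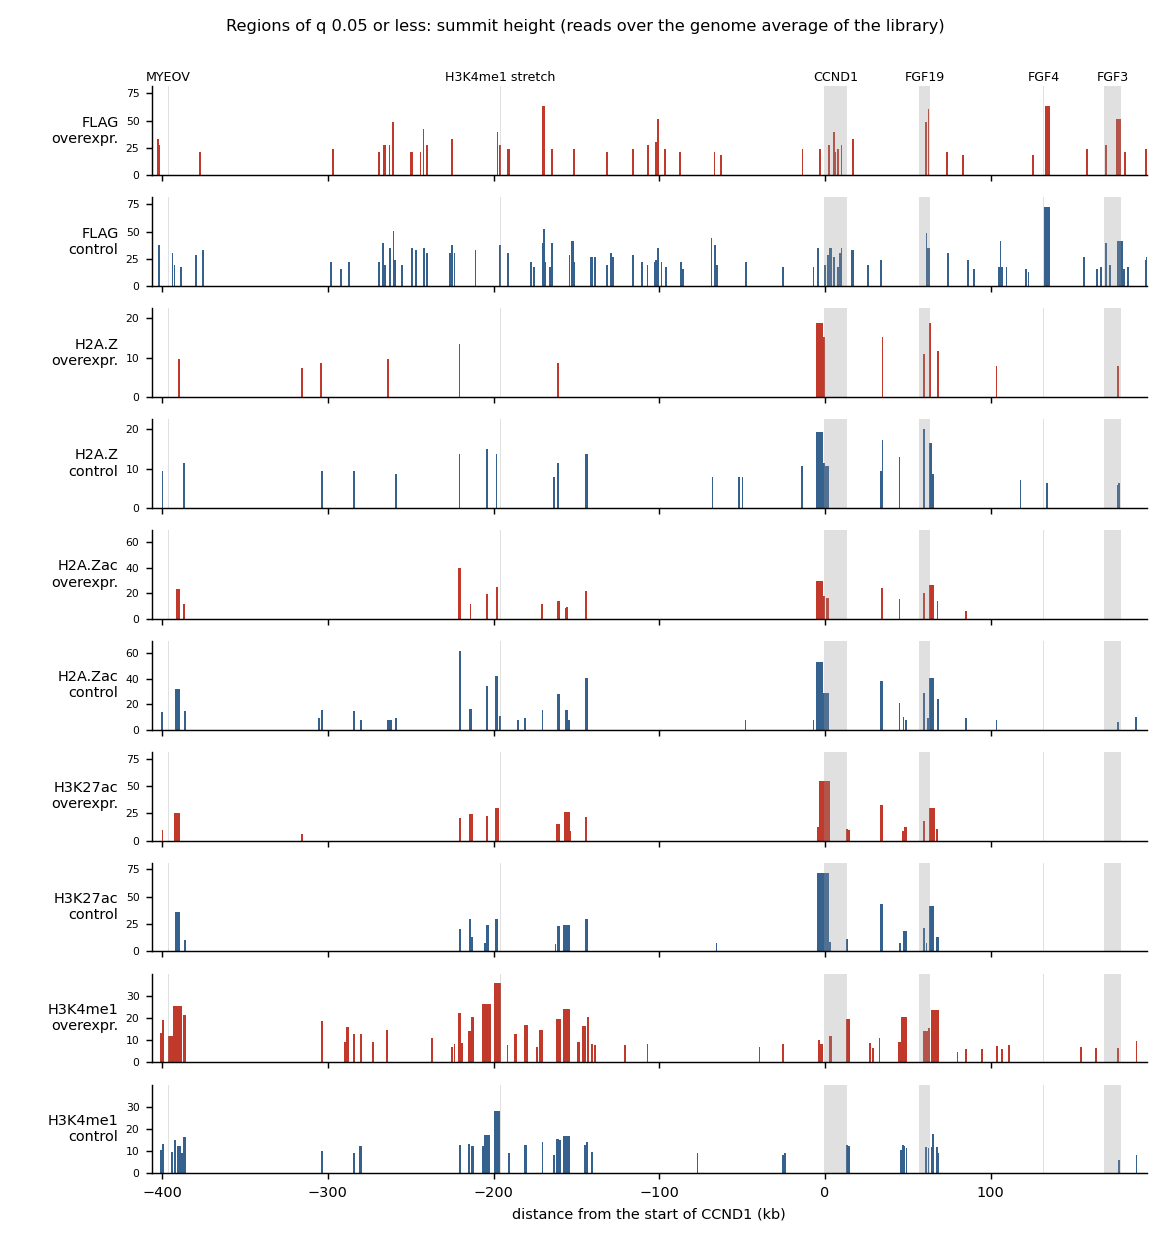
Regions (q of 0.05 or less) of the 10 ChIP lists, overexpression above control for each antibody. The horizontal axis is the distance from the start of CCND1 in kb, the height of a bar is the summit height in multiples of the library's genome average, its width is the region's length (at least 1 kb is drawn), grey bands mark the named features, and both conditions of an antibody share an axis. H3K27ac is highest at CCND1, at 54.1 with overexpression and 72.1 in the control, and FLAG is highest at FGF4, at 63.7 with overexpression and 72.3 in the control.

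The H3K4me1 stretch was a cluster of marked places and not a single peak. Its leading region, chr11:69256370-69260274 with overexpression and chr11:69256284-69260178 in the control, had 73 reads and a height of 35.5 with overexpression and 50 reads and 27.9 in the control. By q it ranked 1 of the overexpression H3K4me1 list and 2 of the control list over the whole genome. H3K27ac at the same place was at the same height, 29.8 with overexpression and 29.9 in the control, a ratio of 0.997 (0.686 to 1.45). H2A.Zac was not, at 24.6 with overexpression and 42.3 in the control, a ratio of 0.583 (0.406 to 0.830). H2A.Z was a region at a height of 13.6 in the control and a deposited peak of 9.14 above the q limit with overexpression. FLAG had a pair of summits there, on 6 to 17 reads. Their heights ran in opposite directions, and no interval was taken for either ratio. At chr11:69258165-69258648 the height was 39.5 with overexpression, on 13 reads, and 13.2 in the control, on 6 reads of a deposited peak above the q limit. At chr11:69259571-69259990 it was 27.3 with overexpression, on 9 reads, and 37.3 in the control, on 17 reads.

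The highest H2A.Zac of the locus lay at -24.4 kb from the position that marks the stretch, at chr11:69234572-69236135 with overexpression and chr11:69234897-69236393 in the control. It had 89 reads and a height of 39.8 with overexpression, and 120 reads and 61.8 in the control, a ratio of 0.644 (0.484 to 0.855). H2A.Z there was 13.4 with overexpression and 13.6 in the control, and H3K27ac 20.5 with overexpression and 20.8 in the control, both close to equal. H3K4me1 was 22.4 with overexpression and 12.8 in the control, a ratio of 1.74 (1.04 to 3.02). H2A.Zac was thus lower and H3K4me1 higher with overexpression at this place, as over the genome, where the median ratios were 0.652 and 1.09, both inside these intervals.

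At chr11:69062768-69068013, beside the position that marks MYEOV, H3K4me1 was again higher. It reached 25.3 with overexpression and 15.1 in the control, a ratio of 1.68 (1.04 to 2.78). H3K27ac reached 25.6 with overexpression and 36.3 in the control, and H2A.Zac 23.3 with overexpression and 32.0 in the control, with upper bounds of the ratios at 1.02 and 1.07. Between the stretch and CCND1 lay the interval chr11:69313511-69450649, 137 kb, drawn from these data between neighbouring places of several histone marks. By that choice no place in it held more than 1 histone mark in either condition. The histone regions left there with overexpression were 6 of H3K4me1, and those in the control were 4 of H3K4me1, 4 of H2A.Z, 2 of H2A.Zac and 1 of H3K27ac. FLAG, which was not used to draw the interval, had 10 regions in it with overexpression and 21 in the control.

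**Figure D2:**
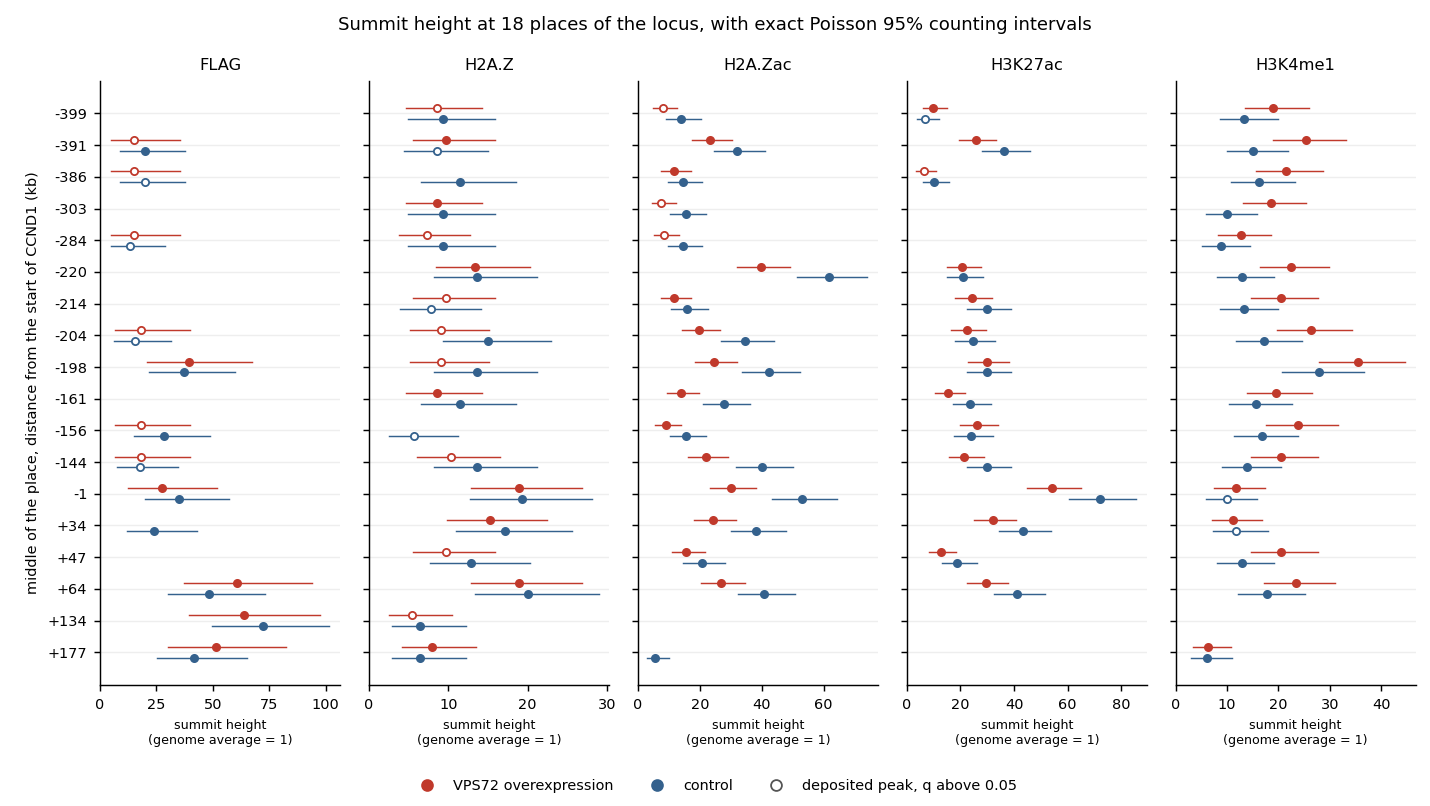
Summit heights in multiples of the library's genome average (horizontal axis, 1 panel per antibody) at 18 places, listed by the distance of their middle from the start of CCND1 in kb: the 17 with at least 3 histone marks in 1 condition, and the place of the strongest FLAG region at FGF4. Red is overexpression and blue, drawn below it, is control; open points are deposited peaks with a q above 0.05, lines are exact Poisson 95% intervals, and no point means no deposited peak. H2A.Zac is lower with overexpression at 13 of 13 and H3K4me1 higher at 15 of 15 of the 17 places where both conditions had a region, and the interval of the ratio left out 1 at 8 and at 3 of these.

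Regions were denser in the locus than in the genome for each antibody. FLAG had 49 regions with overexpression and 90 in the control, which is 5.35 and 6.66 times the genome density. H2A.Z had 14 with overexpression and 28 in the control (5.02 and 5.43 times), H2A.Zac 20 and 38 (3.57 and 4.80 times) and H3K27ac 21 and 23 (4.45 and 4.25 times), overexpression before control. H3K4me1 had 61 with overexpression and 43 in the control, 3.60 and 10.8 times the genome density. These values depended on the q limit. For peaks as deposited, FLAG stood at 1.16 times the genome density with overexpression and 4.29 times in the control. H3K4me1 stood at 2.87 and 3.74 times, and the other lists at 2.85 to 4.54 times. The local background that the peak caller set for the peaks of the window was also above the genome's, with medians of 2.25 to 2.54 in the histone lists with overexpression and 2.15 to 2.42 in the control, against 1.07 to 1.23 over whole lists. Its part in the density was not tested.

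The count of regions with overexpression over that in the control was set beside the same ratio over the genome. It was 0.544 for FLAG (0.677 over the genome), 0.500 for H2A.Z (0.541), 0.526 for H2A.Zac (0.707) and 0.913 for H3K27ac (0.872). H3K4me1 stood apart, with a ratio of 1.42 in the locus and 4.26 over the genome, and 1.81 and 5.17 by covered length. The locus already held 43 H3K4me1 regions in the control list. For H3K4me1 the order depended on the q limit, with 88 deposited peaks with overexpression and 92 in the control, and 28 and 9 at a q of 1e-05 or less. The other antibodies had fewer peaks with overexpression at each limit in the locus. Over the genome this was not so for FLAG and H3K27ac as deposited, where the ratio of counts was 3.00 and 1.19, against 0.814 and 0.843 in the locus.

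Regions found in both conditions were counted in each direction. Of the overexpression regions, 43 of 49 FLAG regions were found in the control (74.0% over the genome), 12 of 14 for H2A.Z (89.7%), 20 of 20 for H2A.Zac (93.3%), 20 of 21 for H3K27ac (90.5%) and 43 of 61 for H3K4me1 (55.2%). Of the control regions, 64 of 90 FLAG regions were found with overexpression (68.4% over the genome), 19 of 28 for H2A.Z (60.5%), 25 of 38 for H2A.Zac (74.0%), 18 of 23 for H3K27ac (84.5%) and 41 of 43 for H3K4me1 (89.7%). For H3K4me1, 18 overexpression regions and 2 control regions had no counterpart, whereas for the other antibodies more control than overexpression regions had none. In histone lists the strongest regions without a counterpart rested on 12 to 19 reads. Among them were the overexpression H3K4me1 region chr11:69348489-69349344 with 17 reads and the control H2A.Zac region chr11:69643399-69643981 past FGF3 with 19 reads. In FLAG the control region without a counterpart that was strongest by q, chr11:69561656-69562091 before FGF4, had 19 reads and a height of 41.7.

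At the 17 places with at least 3 histone marks in 1 condition the histone antibodies moved by height in the same direction as over the genome. These places were chosen by their marks, H3K4me1 included, and the highest peaks of each place were compared. The genome shares are over all control regions found in both conditions, an unlike set. Where both conditions had a region, H2A.Zac was lower with overexpression at 13 of 13, H3K27ac at 11 of 12 and H2A.Z at 6 of 7. Over the genome 95.5% of H2A.Zac, 87.3% of H3K27ac and 71.4% of H2A.Z control regions found in both were not higher. H3K4me1 was higher with overexpression at 15 of 15, against 62.3% over the genome. The median ratio was 0.634 for H2A.Zac, 0.747 for H3K27ac, 0.943 for H2A.Z and 1.42 for H3K4me1, and no interval of these ratios left out the genome median of its antibody. By the fold, H2A.Z ran the other way, higher with overexpression at 6 of 7, whereas H2A.Zac was lower at 12 of 13, H3K27ac at 9 of 12, and H3K4me1 higher at 12 of 15. FLAG was higher by height at 3 of 4 places, with a median ratio of 1.15, but the highest regions of both conditions overlapped at 1 of these. Over all 71 places FLAG was higher at 5 and lower at 6, with a median ratio of 0.896.

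The same comparison was made over all control regions found in both conditions, where a genome value stands beside it. H2A.Zac was lower with overexpression at 25 of 25, with ratios of 0.492 to 0.993 and a median of 0.634, against 0.652 over the genome, where 4.49% were higher. H3K27ac was higher at 3 of 18, with a median of 0.804 against 0.748 over the genome, where 12.7% were higher. The highest H3K27ac ratio of 6.33 came from a small control region of 16 reads inside CCND1, chr11:69458456-69459224, that overlapped the edge of the large overexpression region. H2A.Z was higher at 4 of 19, with a median of 0.852 in the locus and over the genome, where 28.6% were higher. FLAG was higher at 20 of 64, with a median of 0.859 against 0.865 over the genome, where 36.5% were higher.

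The median ratio of H3K4me1, like that of H3K27ac, was above that of the genome, and by a wider margin. H3K4me1 was higher with overexpression at 37 of 41 control regions found in both, with a median ratio of 1.42 against 1.09 over the genome, where 62.3% were higher. With the overexpression list as the selecting one, the median was 1.27 in the locus and 1.20 over the genome, so most of the gap depended on which list chose the regions. FLAG changed direction under the same choice, with a median of 1.01 at overexpression regions. The window holds regions chosen with H3K4me1 in view, so its H3K4me1 ratio is a description.

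**Figure D3:**
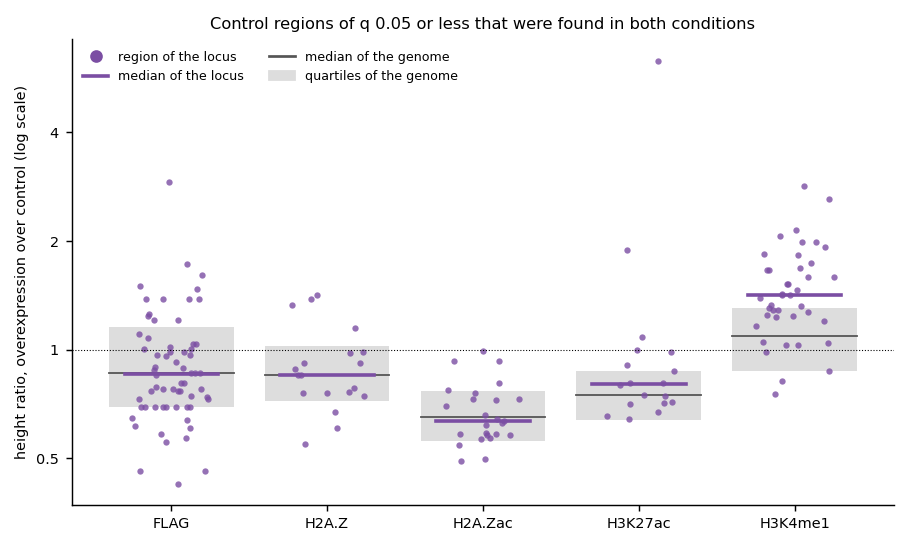
Summit height with overexpression over that in the control (vertical axis, log scale) at control regions (q of 0.05 or less) that overlapped a deposited overexpression peak, by antibody. Points are regions of the locus, purple lines their medians, grey lines and boxes the median and quartiles of the same ratio over the genome. H2A.Zac points lie below 1, with a median of 0.634, and H3K4me1 has a median of 1.42 above the genome's 1.09.

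Histone regions of both conditions joined into 71 places. All 4 marks were present at 6 places with overexpression and at 8 in the control (2.58% and 1.38% of 114176 places of the genome), and 3 of these were the same. H3K4me1 alone was present at 31 places with overexpression (54.4% of the genome's places) and at 7 in the control (7.69%). Those 31 had heights of 4.87 to 17.0 and a median of 8.27, on 10 to 35 reads. The median of all overexpression H3K4me1 regions was 10.2 in the locus and 5.84 over the genome. At 16 of the 31 the control had a deposited H3K4me1 peak. At 23 places H3K4me1 with overexpression was the single mark in either condition that passed the q limit. H2A.Z alone was at 0 places with overexpression and 6 in the control (1.27% and 6.37% over the genome). H2A.Zac alone was at 0 with overexpression and 8 in the control (4.09% and 9.62% over the genome). The same combination in both conditions was found at 11 of 71 places, against 14.3% over the genome.

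FLAG regions were set beside the marks. They lay at 12 of 71 places with overexpression (6.98% of the genome's places had one) and at 25 in the control (10.2%). Some of the 71 places had no histone region in the condition counted, and FLAG lay at 3 of 18 such places with overexpression. In the control it lay at 7 of 24. At places with 1 or 2 marks it lay at 6 of 41 and 11 of 30, and with 3 or 4 marks at 3 of 12 and 7 of 17. Read the other way, 12 of 49 FLAG regions with overexpression lay on a region of at least 1 histone mark (14.5% over the genome) and 23 of 90 in the control (13.4%). Most FLAG regions of the locus thus had no histone region under them. With H2A.Z, the variant that VPS72 binds, 3 of 49 FLAG regions overlapped with overexpression and 7 of 90 in the control, 6.12% and 7.78%, close to the genome's 5.43% and 8.31%. The shares were close although H2A.Z regions covered more of the window than of the genome. They covered 2.02% of the window with overexpression and 3.99% in the control, against 0.328% and 0.642% of the genome. With H3K4me1, 12 of 49 overlapped with overexpression and 12 of 90 in the control, 24.5% and 13.3%, against 7.98% and 2.43% over the genome. H3K4me1 regions covered 15.1% of the window with overexpression and 8.34% in the control, against 2.51% and 0.486% of the genome.

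The local background changed within the locus, in both conditions alike. From MYEOV to FGF19 its medians per 25 kb, over the 4 histone lists together, ran from 1.65 to 2.74 with overexpression and from 1.91 to 2.77 in the control. Past 69.525 Mb, beyond FGF19, they ran from 1.23 to 1.47 with overexpression and from 1.36 to 1.84 in the control. The FLAG lists, whose background was 4.61 with overexpression and 4.90 in the control up to that point, had 3.33 and 3.29 past it. CCND1 and FGF19 lay on the higher side, and FGF4 and FGF3 on the lower. The point was chosen after the values were seen.

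The step lay on the falling side of a longer raised block. In the histone lists the background was 1.00 to 1.10 with overexpression at 4.0 to 3.5 Mb before CCND1, and in the control 1.00 to 1.15 in 3 lists and 3.51 for H3K4me1. At 3.5 to 3.0 Mb before the gene it was 4.71 to 4.91 with overexpression and 4.44 to 4.73 in the control. It was 5.07 to 5.49 with overexpression and 4.99 to 5.44 in the control at 3.0 to 2.5 Mb before CCND1. From 1.0 to 0.5 Mb before the gene it was 2.33 to 2.52 with overexpression and 2.29 to 2.68 in the control. From 0.5 to 1.5 Mb past the start it was 1.27 to 1.57 with overexpression and 1.30 to 1.60 in the control, and from 2.5 Mb on it was 1.00 to 1.10 with overexpression and 1.00 to 1.07 in the control. Copy number was not measured in these libraries, and its part in the background was not tested. Summit heights are not divided by the local background, so heights on either side of the step are not like for like between genes. At single places the background also differed between conditions, as for H2A.Zac at FGF19.

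**Figure D4:**
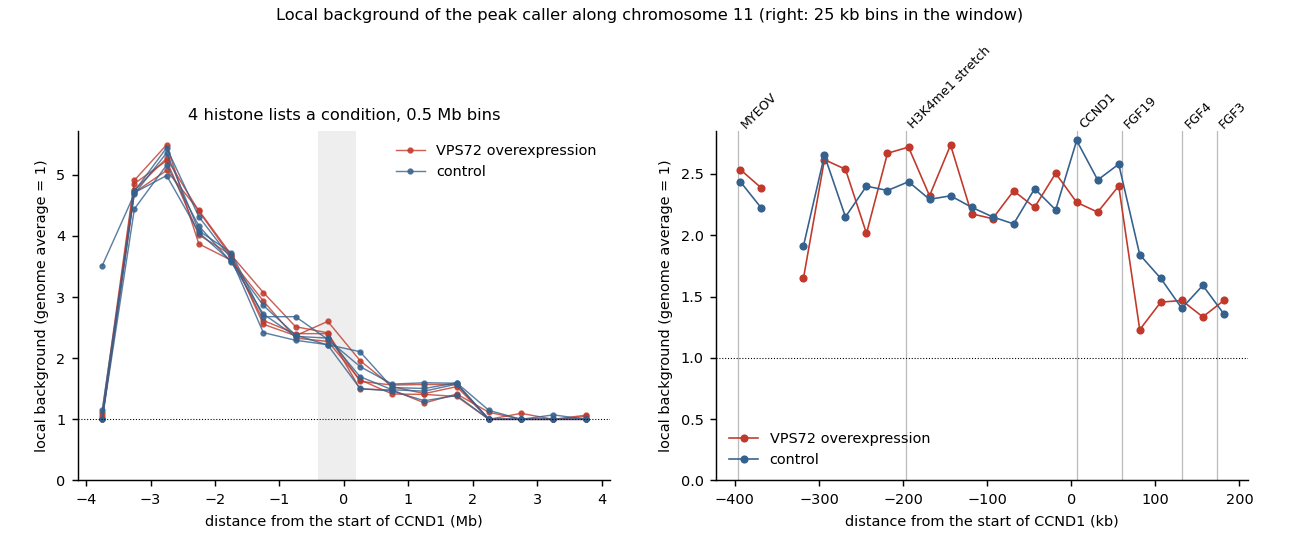
Local background of the peak caller in multiples of the library's genome average (vertical axes). Left, medians of the 4 histone lists of each condition in bins of 0.5 Mb by distance from the start of CCND1, with the window in grey; right, medians over the histone peaks of the window in bins of 25 kb, with the named features as lines and a gap for a bin that holds no peak. Red is overexpression and blue is control, and in both the background falls past FGF19, to 1.23 to 1.47 with overexpression and 1.36 to 1.84 in the control.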

How the data were processed

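Peak lists of 10 ChIP and 2 input libraries of Huh7 cells were used, grouped by sample title. Genotype labels of the overexpression libraries name a running series of VPS genes from VPS72, and peak names of the control H3K4me1 list spell H3k3me1; titles were followed. The authors called peaks with MACS2 per library, after FastQC, Trimmomatic and BWA, per the submitters' processing notes, which give no versions and name both hg19 and hg38; coordinates fitted hg19 lengths (circlize 0.4.16) and are 1-based. The sources used here give neither the control used for calling nor its thresholds.

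In the deposited lists a peak's fold is a ratio, reads at the summit over those of its local background with 1 added to both, p and q are given there as −log10, and the score is an integer derived from them by the peak caller; the second list of each library repeats the deposited summit positions and was not used. The lists deposited by the authors are not filtered on q, so a limit of 0.05 was set. Whole reads at each summit and the local background were solved for from both deposited values, fold and −log10 p, with the Poisson formula that MACS2 uses. A solution had to match −log10 p within 0.002 (as a share of it where it is above 1). Between 87.2 and 100% of peaks of a list had a single solution, and at least 99.9995% had one. The genome average and depth rest on the most common background, the length of the shortest peak and a genome size taken as 2.7 Gb. Ratio intervals are exact conditional (Clopper-Pearson) intervals of the 2 read numbers; intervals of single counts are exact Poisson.

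Named regions are, for each feature and antibody, the one with the highest −log10 q, the 3 highest per list, and the highest without a counterpart; the places between the genes and the region with the highest H3K27ac ratio were added after their values were seen. The members and lists were chosen with earlier results of these data known. Python 3.11.15, numpy 2.4.6, scipy 1.17.1, pandas 2.3.3 and matplotlib 3.10.9 were used, and read recovery and overlap were tested on simulated data. Promoter sequences came from RefSeq (GRCh38.p14), and no coordinate was converted between builds. The cell type label was not checked against marker genes.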

Additional observations from a re-analysis of the deposited data

How the results depend on the processing

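With 1 library per condition no result has a replicate check, and differences of a few reads at a summit cannot be resolved at this depth, least of all in FLAG. No paired analysis was possible because each group holds 1 library. Of 5 height ratios, FLAG changed direction, with a median of 1.01 at overexpression regions. The other 4 medians stayed on the same side of 1 over the regions of the locus under 3 alternatives. For H2A.Z this was narrow, with a median of 0.982 at overexpression regions, where 5 of 12 were higher. By the fold the H2A.Z median at those regions was 1.18, on the other side of 1. Region counts moved with the q limit and with the rule for features, given here with overexpression before control. As deposited they were 127 and 156 for FLAG, 51 and 109 for H2A.Z, 50 and 73 for H2A.Zac, 43 and 51 for H3K27ac, and 92 for control H3K4me1. At a q of 1e-05 or less they were 10 and 29 for FLAG, 4 and 7 for H2A.Z, 28 and 9 for H3K4me1, and 22 for control H2A.Zac. At that limit all 4 marks were at 2 and 4 places, and H3K4me1 alone at 12 and 1. When a counterpart had to pass a q of 0.05, 37 control FLAG regions and 10 control H2A.Z regions were found with overexpression. Counted within 10 kb, the stretch had 12 and 13 regions (71 and 94 by nearest feature), CCND1 21 and 21 (34 and 44), FGF4 2 and 3 (6 and 10), and FGF19 17 with overexpression (26). The lowest background in the window, in place of the median, was 2.52 and 2.43 for FLAG, 1.09 and 1.19 for H2A.Z, 1.23 and 1.20 for H2A.Zac, 1.13 and 1.32 for H3K27ac, and 1.15 and 1.20 for H3K4me1. Another overlap or joining distance moved no count by over 1.5 times.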

Other observations

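The neighbouring windows of the same length, counted by summit, show how the locus sits in its surroundings. The window below it held 44 H3K4me1 regions with overexpression and 32 in the control, 14 and 18 of H3K27ac, and 20 and 32 of H2A.Zac. The window above it, past FGF3, held 27 and 12 of H3K4me1, 6 and 4 of H3K27ac, and 7 and 13 of H2A.Zac. FLAG regions were instead most frequent in the window below. With overexpression before control, they numbered 77 and 102 there, 48 and 89 in the locus, and 30 and 55 above. H2A.Z had 13 and 21 below, 14 and 28 in the locus, and 4 and 15 above. The median background of the H3K27ac list was 2.27 with overexpression and 2.25 in the control in the window below, and 1.42 and 1.52 in the window above.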
